A study of Mus musculus with 2 samples.

Results

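The genes described here are 36 genes of the lysosome, chosen by name from its known factors, membrane proteins, enzymes and proton pump, out of 22180 genes measured on both arrays. A gene was taken from the probe sets that the platform annotation gives to that gene symbol alone, and 35 of the 36 had one. Glb1, which encodes the lysosomal beta-galactosidase, shares its only probe set with a second gene and was not analysed here. Genes whose mean over both arrays was below the median gene (4.20 on the log2 scale, called the floor) were treated as dim, and 33 of the 36 were at or above it. Tfeb and Ctsk lay below it.

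RNA came from the livers of male mice of 2 genotypes, WT and E4bp4-LKO, and the series title speaks of E4bp4 deficiency. E4BP4, encoded by Nfil3, is a bZIP repressor of transcription. Mice of both genotypes were 2 months old when they were put on a high-fat diet, which lasted 12 weeks, so no group on another diet is part of the comparison. Each genotype is 1 array hybridised with RNA pooled from mice, and the sources used here do not state the allele, the deleting transgene, how many mice were pooled or at what hour the livers were taken. With 1 array per genotype no p-value or standard error can be given for any difference below, each of which describes these 2 pools. Nfil3 itself had log2 values of 5.94 in the WT pool and 4.47 in the E4bp4-LKO pool. The hepatocyte markers Alb, Apoa1, Ttr, Asgr1 and Hnf4a, which define the labelled tissue, were all far above the floor on both arrays, between 9.75 and 12.77.

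The lysosome is the acidic compartment in which cells digest material taken up from outside or delivered by autophagy. A rotary proton pump, the V-ATPase, acidifies it, cathepsins cut proteins, and separate hydrolases take lipids and sugar chains apart. TFEB, TFE3 and MITF are related transcription factors that bind a short DNA element, the CLEAR element, near many lysosomal genes. They are held in the cytosol when mTORC1 is active on the lysosome surface. In the liver, lysosomal acid lipase also breaks down lipid of droplets and lipoproteins, and both hepatocytes and macrophages are rich in lysosomes.

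The CLEAR element is built on the letters TCACGTGA. In the RefSeq promoter windows of build GRCm38.p6 (250 bases before to 50 after a gene's start), searched on both strands, the part TCACGTG was found for 11 of the 30 lysosome genes that had a window (36.7%), against 4.29% of 27025 genes in all. The longer TCACGTGA, which contains it, was found for 6 of the 30 (Mcoln1, Ctsa, Ctsd, Gla, Atp6v0d1 and Atp6v1a) against 1.12% of all. The element was described on lysosomal genes, so its presence here is a property of the list and not a finding on the genotype. The stretches below lie before the start of each gene. They set genes that carry the element beside Hexa and Man2b1, which do not carry it. These 2 were picked as the genes above the floor with the largest differences. Ctsa, the next in size, carries the element, so the 2 do not stand for the lower genes as a set. Capitals mark TCACGTG in either orientation, and both orientations overlap in TCACGTGA.

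Lamp1 (chr8:13159079-13159160, plus strand): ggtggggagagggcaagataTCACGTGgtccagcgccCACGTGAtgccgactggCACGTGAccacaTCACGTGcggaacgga
Mcoln1 (chr8:3500427-3500500, plus strand): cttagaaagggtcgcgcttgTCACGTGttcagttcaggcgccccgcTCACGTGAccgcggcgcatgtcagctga
Ctsa (chr2:164833740-164833772, plus strand): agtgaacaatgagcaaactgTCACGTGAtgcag
Ctsd (chr7:142387899-142388077, minus strand): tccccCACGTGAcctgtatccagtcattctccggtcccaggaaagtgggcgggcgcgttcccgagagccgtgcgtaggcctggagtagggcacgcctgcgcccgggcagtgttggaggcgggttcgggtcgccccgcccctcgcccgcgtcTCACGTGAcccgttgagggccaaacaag
Gla (chrX:134601173-134601253, minus strand): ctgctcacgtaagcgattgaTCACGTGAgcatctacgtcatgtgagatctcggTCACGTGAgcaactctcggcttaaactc
Atp6v1a (chr16:44139364-44139411, minus strand): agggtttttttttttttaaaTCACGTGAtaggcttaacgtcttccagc
Hexa (chr9:59539460-59539539, plus strand): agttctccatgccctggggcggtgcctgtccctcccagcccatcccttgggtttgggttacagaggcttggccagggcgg
Man2b1 (chr8:85083189-85083268, plus strand): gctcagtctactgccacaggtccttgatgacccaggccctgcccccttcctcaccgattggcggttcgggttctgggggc

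Most lysosome genes had slightly lower values in the E4bp4-LKO pool. Of the 33 above the floor, 27 had a negative difference (E4bp4-LKO minus WT) and 6 a positive one, against 54.5% negative among the 11090 genes above the floor. The median difference was -0.13 on the log2 scale, with a standard deviation between genes of 0.19, against a median of -0.02 over all genes above the floor. The sizes were small: Hexa alone was at least 1.5-fold lower (2.06% of all genes above the floor were), and none was at least 1.5-fold higher (1.51% of all genes were). One of 33 is a share near that of all genes. At a smaller threshold of 0.32 on the log2 scale, 7 of the 33 were lower, against 8.89% of all genes, and none was higher, against 7.4%. These 7 were Hexa, Man2b1, Ctsa, Gusb, Atp6v1a, Psap and Mcoln1. In whole liver RNA, fewer cells of a type and less RNA per cell cannot be told apart.

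A measure of error comes from genes measured by 2 probe sets, 555 of them above the floor, whose differences had a standard deviation of 0.22 between the probe sets of a gene. It covers disagreement of probes and not variation between mice. By more than this amount 12 of the 33 lysosome genes were lower, against 16.9% of all genes, and none was higher, against 13.8%. The central 95% of all genes above the floor lay between -0.54 and 0.49, and Hexa alone among the 33 lay outside it.

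**Figure D1:**
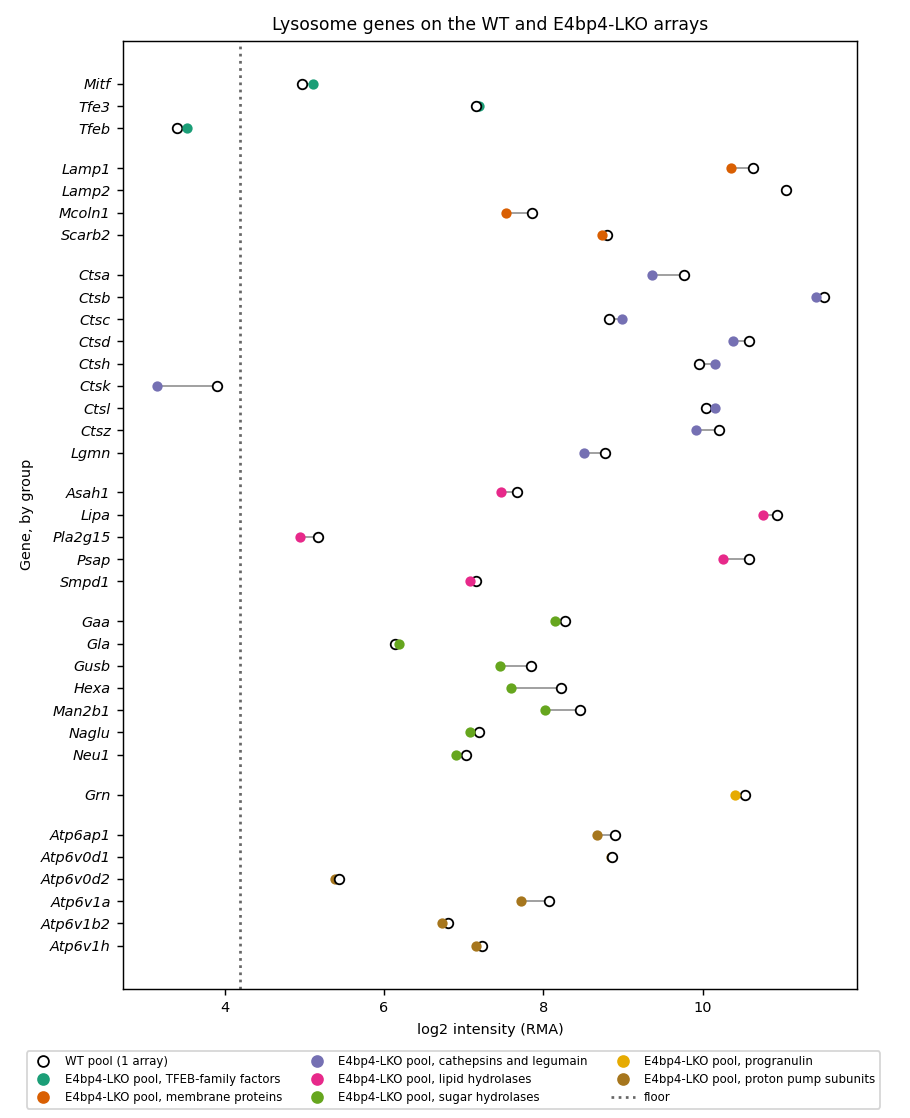
Log2 intensity (horizontal axis) of the 35 measured lysosome genes, with the WT pool as open circles and the E4bp4-LKO pool as filled circles coloured by group; each circle is 1 array and the dotted line is the floor at 4.20. Filled circles lie left of the open ones for 28 of the 35 genes, most clearly for Hexa and Ctsk, and both circles coincide for Lamp2.

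The 3 TFEB-family factors among the 36 genes had differences slightly above zero. Tfe3 was at 7.16 on the WT array and 7.19 on the E4bp4-LKO array, a difference of 0.03. Mitf, whose product also drives pigment cell and osteoclast genes, was at 4.97 and 5.11 (0.14). Tfeb lay below the floor on both arrays, at 3.40 and 3.52, so its difference of 0.12 has little weight. All 3 values on the E4bp4-LKO array were thus slightly the higher ones, each by less than the disagreement between probe sets. These factors are controlled largely by their location in the cell, which an RNA array does not measure. Tfec, the remaining relative of the family, which is not among the 36, was lower, at 5.10 and 4.75 (-0.35), by more than that disagreement.

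Among the membrane proteins all 4 had a negative difference, against 54.5% of all genes above the floor. Mcoln1, the calcium channel through which lysosomes signal to TFEB, was at 7.85 (WT) and 7.53 (E4bp4-LKO), a difference of -0.33. Lamp1, a heavily glycosylated coat protein of the lysosome membrane, was at 10.63 and 10.36 (-0.27). Lamp2, its relative, which also serves chaperone-mediated autophagy, was at 11.05 and 11.04, a difference of -0.004. Each of the LAMP genes was read from 1 probe set, and whether their differences were unequal was not tested. Scarb2, the membrane protein LIMP-2 that carries glucocerebrosidase to the lysosome, was at 8.80 and 8.74 (-0.06).

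The cathepsins and legumain were divided. Of the 8 above the floor, 5 were lower and 3 higher on the E4bp4-LKO array, where 54.5% of all genes were lower. The median was -0.15, with a standard deviation of 0.23 between genes. Ctsa, a serine carboxypeptidase that also protects beta-galactosidase and neuraminidase, was at 9.77 (WT) and 9.37 (E4bp4-LKO), a difference of -0.41. Ctsz, a cysteine carboxypeptidase, was at 10.20 and 9.91 (-0.29). Lgmn, which encodes legumain, an endopeptidase that cuts after asparagine and processes cathepsins, was at 8.77 and 8.51 (-0.26). The aspartic protease gene Ctsd was at 10.58 and 10.38, or -0.20. For Ctsb, a broadly expressed cysteine protease, the values were 11.52 and 11.42, or -0.10.

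A further 3 cysteine proteases had higher values on the E4bp4-LKO array. Ctsh, an aminopeptidase, was at 9.95 (WT) and 10.16 (E4bp4-LKO), a difference of 0.21. Ctsc, which removes dipeptides and activates granule proteases of immune cells, was at 8.82 and 8.98 (0.16). Ctsl, an endopeptidase, was at 10.05 and 10.16 (0.11). None of these 3 exceeded the disagreement between probe sets. Ctsk, the collagen-degrading cathepsin of osteoclasts and fibroblasts, was at 3.91 and 3.15, both below the floor, and the size of its difference of -0.76 is therefore uncertain.

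All 5 genes of lipid breakdown had a negative difference, against 54.5% of all genes above the floor. Their median was -0.20, with a standard deviation of 0.10 between genes. Psap, the precursor of the saposins that present sphingolipids to their hydrolases, was at 10.59 (WT) and 10.25 (E4bp4-LKO), a difference of -0.33. Pla2g15, a phospholipase, was at 5.17 and 4.94 (-0.23), and its 2 probe sets gave -0.29 and -0.17, the second from values below the floor. Asah1, the acid ceramidase, was at 7.67 and 7.47 (-0.20). Lipa, the acid lipase of cholesteryl esters and triglycerides, was at 10.93 and 10.76 (-0.17). Smpd1, the acid sphingomyelinase, differed least, at 7.15 and 7.08 (-0.07), with -0.14 and -0.002 in its 2 probe sets. Of the 5, Psap and Pla2g15 exceeded 0.22.

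The sugar hydrolases had a median of -0.14 and a standard deviation of 0.24 over 7 genes, 6 of them lower. Hexa, the alpha subunit of beta-hexosaminidase that removes the terminal sugar of the ganglioside GM2, was at 8.23 (WT) and 7.60 (E4bp4-LKO). Its difference of -0.63 is 1.54-fold, and 1.68% of all genes above the floor lay as low or lower. Of the 1459 genes within 0.5 of its mean level, 0.754% did. Man2b1, the alpha-mannosidase of glycoprotein breakdown, was at 8.46 and 8.02 (-0.44, 1.35-fold). Gusb, the beta-glucuronidase of glycosaminoglycan breakdown, was at 7.85 and 7.46 (-0.39, 1.31-fold). These 3 differed by more than 0.22 and the other 4 of the group by less.

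Gaa, which digests glycogen inside lysosomes, was at 8.28 (WT) and 8.14 (E4bp4-LKO), a difference of -0.14. Neu1, a sialidase that works in a complex with the product of Ctsa, was at 7.03 and 6.91 (-0.12). Naglu, an enzyme of heparan sulfate breakdown, was at 7.20 and 7.09 (-0.11). Gla, the alpha-galactosidase of globotriaosylceramide, was the exception in direction, at 6.14 and 6.19 (0.05). Grn, the precursor of the granulins, which are required for normal lysosome function, was at 10.54 and 10.41 (-0.13).

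Most proton pump subunits were close to zero. All 6 were lower, but the median was -0.07 and 4 of them were within 0.08 of zero. Atp6v0d1 turned to 0.01 when the trend of differences with intensity was subtracted, so the shared direction did not hold under that setting. Atp6v1a, the catalytic subunit that hydrolyses ATP, was at 8.07 (WT) and 7.72 (E4bp4-LKO), a difference of -0.35. Atp6ap1, an accessory protein of pump assembly, was at 8.90 and 8.67 (-0.23). Atp6v1b2, the B subunit that alternates with subunit A in the ATP-splitting head, was at 6.81 and 6.73 (-0.08), and its 2 probe sets gave -0.08 and -0.07. Atp6v1a was read from 1 probe set, and whether these partners in the same complex differed unequally was not tested.

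The remaining subunits were near zero. Atp6v1h, a regulatory subunit of the head, was at 7.23 and 7.16 (-0.07). Atp6v0d1, the widely expressed d subunit of the stalk, was at 8.87 and 8.85 (-0.02). Atp6v0d2, the d subunit of osteoclasts and some macrophages, was at 5.43 and 5.39 (-0.04). The d subunit genes therefore did not differ from one another by more than the disagreement of probe sets.

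**Figure D2:**
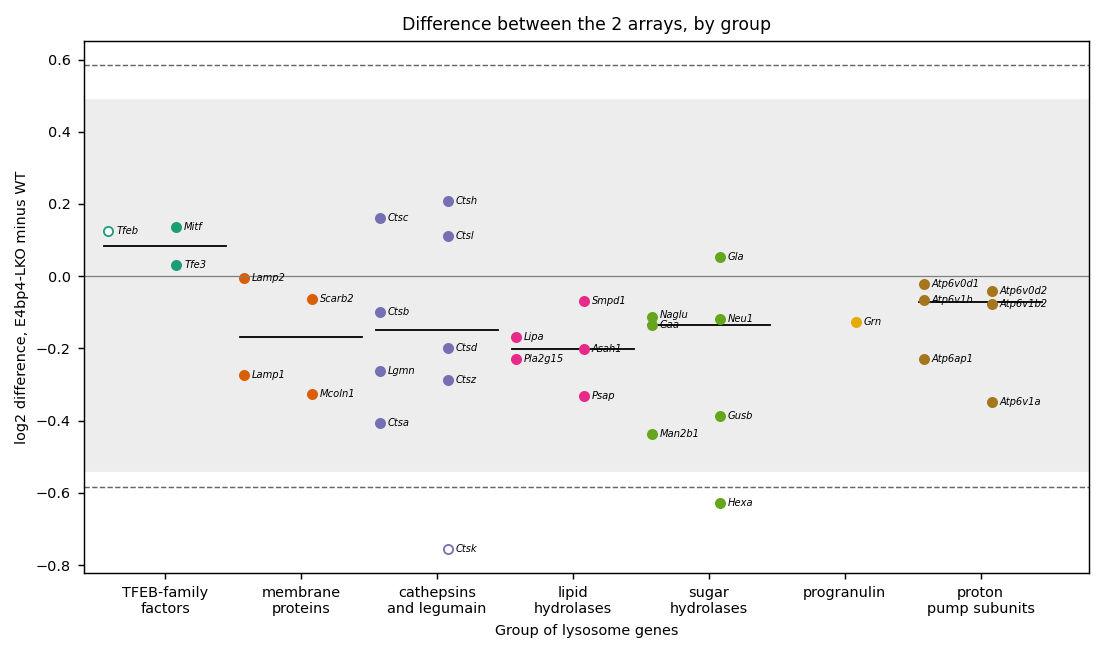
Log2 difference, E4bp4-LKO minus WT (vertical axis), of each measured lysosome gene by group, with 1 point per gene, open where the gene lies below the floor and not counted in the black median lines. The grey band holds the central 95% of all genes above the floor (-0.54 to 0.49) and the dashed lines mark 1.5-fold; Hexa is the one filled point outside the band, and the TFEB-family median (0.08) is the one group median above zero.

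Set side by side, the group medians were 0.08 for the TFEB family (2 genes above the floor), -0.07 for the proton pump, -0.14 for sugar hydrolases, -0.15 for cathepsins and legumain, -0.17 for the membrane proteins and -0.20 for lipid hydrolases. The ranges of all groups of enzymes, membrane proteins and pump subunits overlapped. With 1 array per genotype and 2 to 8 genes per group, no difference between groups could be tested.

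**Figure D3:**
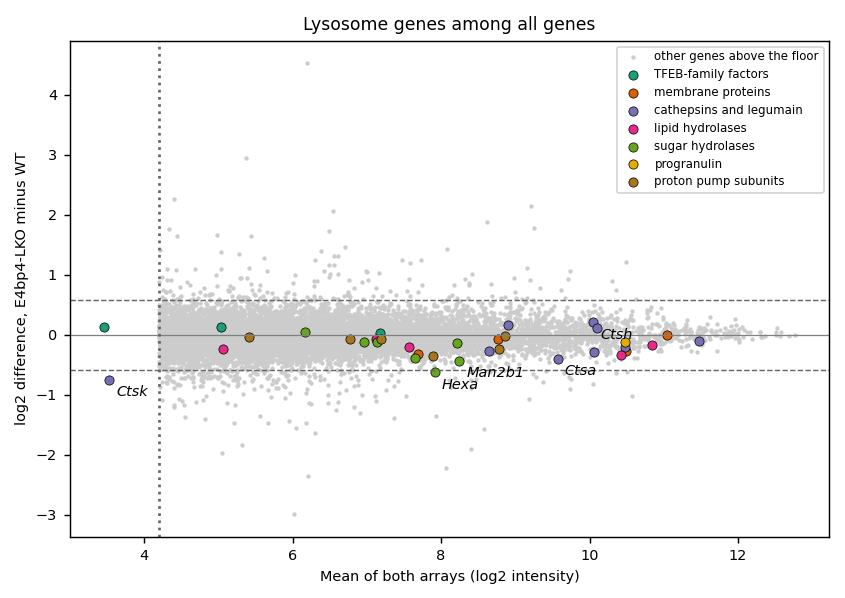
Log2 difference (vertical axis) against the mean log2 intensity of both arrays (horizontal axis) for the 11090 genes above the floor (grey) and the lysosome genes (coloured by group). Lysosome genes lie within the cloud, mostly below zero, and Hexa alone crosses the dashed 1.5-fold line among those right of the dotted floor.

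Genes with and without the element in their promoter window had overlapping differences. The 10 lysosome genes above the floor with TCACGTG had a median of -0.23 and ran from -0.41 (Ctsa) to 0.05 (Gla). The 17 with a window and no such letters had a median of -0.13 and ran from -0.63 (Hexa) to 0.16 (Ctsc). Over all genes above the floor with a window the medians were -0.05 for the 607 with TCACGTG and -0.02 for the 8191 without it. Lamp1, which carries 4 copies, differed by -0.27. Gla, with 2 in the stretch shown, differed by 0.05, less than the disagreement between probe sets of 0.22. Whether the element bears on the differences was not tested. Hexa, Man2b1, Gusb and Psap, 4 of the 7 genes lower by at least 0.32, had no TCACGTG in the window. Ctsa, Atp6v1a and Mcoln1 of the 7 had it. Among all lysosome genes above the floor with a window, 17 lacked it and 10 carried it. The letters TTATGTAA and TTACGTAA, forms of the element that E4BP4 binds, were in the window of none of the 30 lysosome genes. Among all genes the shares were 1.11% and 0.126%. With shares this low, none of 30 is not a result about the lysosome genes. These windows hold 300 bases, and a missing match says nothing of sites elsewhere.

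Other genes of the lysosome, of autophagy and of TFEB control were read from lists that do not overlap with the 36. Of 123 such genes measured, 110 lay above the floor. Of these, 71 were lower and 39 higher on the E4bp4-LKO array, with a median of -0.11, where 54.5% of all genes above the floor were lower and their median was -0.02. At least 1.5-fold lower were 5, against 2.06% of all genes, and none was higher by as much, against 1.51%. The 5 were Cd63, Arsa, Ctse, Igf2r and Rragd.

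Among 17 further lipid and sugar hydrolases 10 were lower, a share near the 54.5% of all genes, and their median was -0.06. Arsa, the arylsulfatase that opens sulfatide with the help of a saposin made from Psap, was at 7.44 (WT) and 6.44 (E4bp4-LKO), a difference of -1.01. Gm2a, the activator protein that presents GM2 to the product of Hexa, was at 9.77 and 9.42 (-0.35). Galc, which removes galactose from the lipid left by Arsa, was higher, at 5.61 and 5.92 (0.31). Gm2a and Galc were picked out after their values had been seen.

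The same list holds enzymes of glycosaminoglycan breakdown. Galns, a sulfatase of keratan sulfate, was at 5.88 (WT) and 5.41 (E4bp4-LKO), a difference of -0.47, and Sgsh, a sulfatase of heparan sulfate, at 6.84 and 6.46 (-0.39). Ids and Idua, which act on the uronic acids of heparan and dermatan sulfate, differed by 0.11 and -0.17, and Hgsnat, the acetyltransferase step before Naglu, by -0.10. These last 3 were also named after their values had been seen.

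Among 10 further proteases and cystatins 7 were lower (median -0.11), against 54.5% of all genes above the floor. Ctse, an aspartic protease, was at 5.36 (WT) and 4.63 (E4bp4-LKO), a difference of -0.73. Dpp7, a dipeptidyl peptidase, was at 6.22 and 5.71 (-0.51). Cstb, a cystatin that inhibits cysteine cathepsins, was higher, at 6.90 and 7.20 (0.30).

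Of 13 further pump subunits 7 were lower, a share near the 54.5% of all genes above the floor, and 6 higher (median -0.11). Atp6ap2, the second accessory protein, was at 7.56 (WT) and 7.14 (E4bp4-LKO), a difference of -0.41, next to -0.23 for Atp6ap1. Atp6v0a1, a proton channel subunit, was at 8.02 and 7.67 (-0.34). Atp6v1g1, a stalk subunit, was higher, at 4.83 and 5.24 (0.42), and its 3 probe sets gave 0.38, 0.42 and 0.45. Pump genes outside the 36 thus did not share one direction.

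Of 19 further membrane proteins and channels 14 were lower, with a median of -0.17. Cd63, a tetraspanin of late endosomes and lysosomes, was at 7.17 (WT) and 6.05 (E4bp4-LKO), a difference of -1.12. Cd68, a LAMP relative of macrophages, was at 8.27 and 7.84 (-0.43), and Laptm4b, a lysosomal transmembrane protein, at 8.44 and 8.05 (-0.39). In the sorting route that tags enzymes with mannose 6-phosphate, Igf2r, the large receptor that carries them to endosomes, was at 6.98 and 6.32 (-0.66). M6pr, the small receptor of the same tag, differed by 0.05, and was named after its value had been seen. Nagpa, which uncovers the tag, differed by -0.35. For Sort1, a sorting receptor, the average of -0.24 hides 2 probe sets at -0.76 and 0.28.

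Genes that control TFEB through mTORC1 or calcineurin, a list that also holds Tfec, had a median of -0.14. Of the 19 above the floor 13 were lower, against 54.5% of all genes. Rragd, a Rag GTPase that recruits TFEB to the lysosome and is itself a TFEB-family target, was at 5.45 (WT) and 4.87 (E4bp4-LKO), a difference of -0.59. Mtor, the kinase, was at 7.63 and 7.28 (-0.35). Of 26 autophagy genes 16 were lower, a share near the 54.5% of all genes. Their median was -0.09 and none was past 1.5-fold, against 2.06% lower and 1.51% higher among all genes. Atg7, the activating enzyme of the conjugation system, was at 7.81 and 7.40 (-0.42), Vps11, a tethering subunit of vesicle fusion, at 7.46 and 7.19 (-0.27), and Sqstm1, the cargo receptor p62, at 10.37 and 10.15 (-0.22).

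Markers of other cells moved too, where 54.5% of all genes above the floor were lower. All 8 measured markers of lipid-associated macrophages, cells rich in lysosomes, were lower on the E4bp4-LKO array. The mean log2 level of the list was 5.53 (WT) and 4.75 (E4bp4-LKO). Fabp5, which differed least (-0.07), averages 4 probe sets that split, at -0.31, -0.35, 0.18 and 0.19. On the E4bp4-LKO array Gpnmb (4.06) and Itgax (3.97) were below the floor. Gpnmb, a glycoprotein of lysosome-stressed macrophages and a TFEB-family target, was at 6.04 and 4.06, and Mmp12, the macrophage elastase, at 7.12 and 5.48. Of 10 general macrophage markers 9 were lower (differences from -0.52 to 0.40, list mean 7.26 and 7.07), whereas all 5 Kupffer cell markers were higher, by 0.07 to 0.35 (list mean 7.52 and 7.76). Macrophage lists therefore did not move one way.

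All 8 stellate cell markers were lower, by between -0.23 and -1.15 (list mean 7.05 and 6.42). All 6 skeletal muscle markers were lower too, by between -0.40 and -1.83 (list mean 6.34 and 5.19). The -0.40 is Ckm, which lay below the floor and averages 2 probe sets at -0.78 and -0.02. Of 6 endothelial markers 5 were lower (list mean 8.38 and 8.17). The 5 hepatocyte markers differed by between -0.04 and 0.14 (list mean 11.29 and 11.35). All 4 neutrophil markers, 3 of the 5 osteoclast markers and 2 of the 4 cholangiocyte markers lay below the floor. The part of any of these cell types in the lower lysosome genes was not tested.

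**Figure D4:**
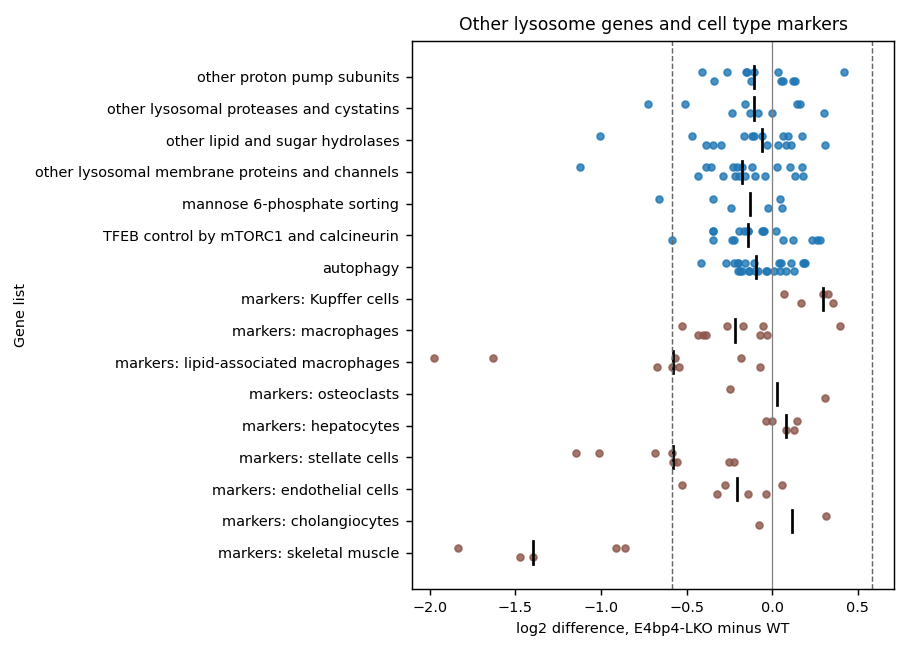
Log2 difference, E4bp4-LKO minus WT (horizontal axis), of genes above the floor in the further lysosome and autophagy lists (blue) and the cell type marker lists (brown), 1 point per gene, with black lines at list medians and dashed lines at 1.5-fold. Blue medians lie between -0.17 and -0.06, while the marker medians run from -1.40 (skeletal muscle) to 0.30 (Kupffer cells).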

How the data were processed

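Per the submitters' processing notes, the deposited log2 intensities were made by the authors with RMA, which corrects background, equalises array distributions by quantiles and summarises probes, in R 3.4.0. A shift common to most genes would be removed by this step, and differences of dim genes are compressed. The array medians were 3.74 (WT) and 3.75 (E4bp4-LKO). Of 41345 probe sets, the platform annotation gave 23521 one symbol, which were averaged per gene; 1814 with several symbols and 16010 with none were left out. For all 35 measured genes the Entrez identifier gave the same symbol in the RefSeq table. Differences are E4bp4-LKO minus WT, computed with pandas 2.3.3 in Python 3.11.15, and the summary code was tested on made-up differences. The number of arrays limits precision. The genes and lists were chosen with earlier results of these data known. The rule named every lysosome gene, and in each further list genes past 1.5-fold and otherwise the 3 largest differences. Promoter windows came from RefSeq tables, build GRCm38.p6; no windows were used for 6 of the 36 genes. Alternatives changed the floor, the threshold, the choice of probe sets and the intensity trend (a running median over 501 genes).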

Additional observations from a re-analysis of the deposited data

How the results depend on the processing

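The number of lysosome genes at least 1.5-fold lower was 1 with the chosen settings. It was 2 with no floor, where Ctsk was added, 7 at a threshold of 0.32 on the log2 scale and 0 at a 2-fold threshold. None was higher under any of these settings. When the floor was raised to the 75th percentile of mean level, the median of the sugar hydrolases was -0.26 in place of -0.14, since Gla left the group. The other group medians, and all of them under the other choices of probe sets or with the intensity trend subtracted, kept their sign and moved by less than the probe set standard deviation divided by the square root of the number of genes. All 105 differences of single genes recomputed with other probe sets or without the trend moved by less than 0.22. Most of them could not move. As 32 genes have 1 probe set, taking the probe set with the highest mean could change only Smpd1, Pla2g15 and Atp6v1b2. Including probe sets with several symbols changed no single gene. With the trend subtracted 26 of 33 lysosome genes were lower (Atp6v0d1 turned to 0.01), and their median was -0.12. No replicate could be left out, and no paired analysis was possible because each genotype is 1 array. Tfeb and Ctsk, below the floor, are limited by background, for which no detection calls were used.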
